A study of Mus musculus with 12 samples.

Results

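Keratin-associated proteins are encoded by the Krtap genes, which are named by subfamily (the number after Krtap) and member. Of the 22609 gene symbols counted in this series, the 51 that start with Krtap were taken as members, without regard to their counts, and they fall into 23 subfamilies. They were examined in RNA-seq libraries of hind paw tissue and whole DRG (dorsal root ganglion) from female and male C57BL/6J mice, with 3 libraries per sex and tissue. The labels give an age of 8 to 14 weeks and an injection of 20 µl saline into the paw for all 4 groups, whereas the study's methods describe naïve mice of a narrower age range, with females in estrous. By the same methods the hind paw samples were punches of epidermis and dermis with some fat and without muscle, and the ganglia were lumbar. The labels describe rRNA-depleted stranded libraries and paired reads, and the methods describe poly(A)-selected stranded libraries and single reads. The labels do not say whether libraries of a group came from separate mice, so every p-value below measures the spread between these libraries.

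Reads assigned to genes numbered 13470783, 6866545 and 12469678 in male hind paw libraries 1, 2 and 3 and 10956446, 11414706 and 10678598 in female hind paw libraries 1, 2 and 3 (values for several libraries are given in this order throughout). The DRG libraries held between 8988497 and 13327072. Levels are normalized counts, that is, counts divided by a size factor for each library. A pair of hind paw libraries stood apart. In male library 2, 13.6% of the listed reads were assigned to genes and 55.5% aligned to more than 1 place, against 23.8% to 25.4% and 42.1% to 43.2% in the other 5. Female library 2 did not differ from them in either share, but 44 of its 51 Krtap genes were at 0 counts, against 3 to 10 in each other library. Results are therefore also given without it.

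Keratin-associated proteins are small proteins of the hair shaft. They form the matrix around the hair keratin filaments and are joined to them through disulfide bonds of their many cysteines. Their genes are transcribed in the cortex and cuticle cells of growing hair follicles, and the family is divided by composition into high-sulfur, ultra-high-sulfur and high-glycine-tyrosine proteins.

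All 51 genes had at least 1 read in the hind paw. Their summed normalized count was 827, 1985 and 1592 in the male libraries and 343, 65.4 and 445 in the female libraries. Every male library was thus above every female library, with a mean of 1468 ± 589 (SD, n = 3) against 285 ± 197, a ratio of 5.16. Female library 2 was the lowest, and without it the ratio of the means was 3.72. On the log2 scale the difference was -2.68, and it ranged from -1.82 without female library 2 to -3.20 without female library 3. In these bulk samples, fewer cells that transcribe the genes and less RNA per cell cannot be told apart. Of the 65.4 normalized counts in female library 2, 56.4 came from Krtap3-2 alone. Without that gene, which was singled out after its values were seen, the family summed to 8.96 there and to between 292 and 1869 in the other libraries.

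Composition was computed from the coding sequences of the annotation for the 44 members that have one. By the limits used here, 15 members with at least 30% cysteine were ultra-high-sulfur, 10 others with at least 35% glycine plus tyrosine were high-glycine-tyrosine, and the remaining 19 were high-sulfur. Stretches of 30 codons of 3 members show how the classes differ, 5′ to 3′ on the coding strand. Capitals mark cysteine codons in Krtap4-16 (codons 39 to 68, 12 marked) and Krtap3-2 (codons 2 to 31, 8 marked), and glycine or tyrosine codons in Krtap6-1 (codons 3 to 32, 23 marked).
Krtap4-16: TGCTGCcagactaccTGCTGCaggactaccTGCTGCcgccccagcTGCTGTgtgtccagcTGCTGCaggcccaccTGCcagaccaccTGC
Krtap3-2: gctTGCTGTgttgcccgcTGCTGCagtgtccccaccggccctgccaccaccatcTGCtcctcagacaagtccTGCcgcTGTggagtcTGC
Krtap6-1: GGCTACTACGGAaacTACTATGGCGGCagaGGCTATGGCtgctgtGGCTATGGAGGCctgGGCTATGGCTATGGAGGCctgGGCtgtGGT

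The ultra-high-sulfur genes, whose products are the richest in cysteine, summed to 246, 580 and 490.4 normalized counts in the male libraries and to 70.2, 2.69 and 129 in the female libraries. They are the Krtap4 genes, most Krtap5 genes, Krtap9-1, Krtap9-5, Krtap17-1 and Krtap1-3. The sexes did not overlap, and the ratio of the means was 6.52 with all libraries and 4.40 without female library 2. The female minus male difference of log2 sums was -3.83, and with 1 library left out it ranged from -2.11 without female library 2 to -4.91 without female library 3. Krtap4-16 (ENSMUSG00000046474) has a single exon on the minus strand of chromosome 11 of mm9, from 99711969 to 99712922, and 31.7% of its codons are for cysteine. Its normalized counts were 34.7, 49.5 and 62.5 in males and 4.74, 0.896 and 8.94 in females. Each male library was above each female library, and the female counts behind these values were 5, 1 and 9 reads. Testing required 10 counts in at least 3 libraries, which Krtap4-16 reached in males only, so that this filter set its direction. The log2 fold change of female against male was -3.33 (standard error 0.52), and with edgeR (quasi-likelihood F-test, Benjamini-Hochberg) its adjusted p-value of 0.0772 missed 0.05. Under the other fits that could be made, the adjusted p-value ranged from 3.18e-06 with DESeq2 to 0.255 without female library 1.

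Other Krtap4 genes were also higher in males. Krtap4-2 had 31.5, 101 and 62.5 normalized counts in males and 4.74, 0.896 and 13.9 in females. Krtap4-6 had 18.9, 25.6 and 37.0 in males and 4.74, 0 and 4.97 in females, and Krtap4-9 had 16.6, 52.9 and 44.0 against 4.74, 0 and 8.94. In these 3 genes, too, the lowest male library was above the highest female library, which held in 7.82% of all genes tested. Their log2 fold changes were -3.28, -3.06 and -3.002 with standard errors of 0.69, 0.64 and 0.75, and edgeR's adjusted p-values were 0.165, 0.160 and 0.235. Krtap4-6 and Krtap4-9 reached 10 counts in males only, so that the filter set their direction. Krtap4-1, the highest Krtap4 gene by mean, and Krtap4-7 were at 41.8 and 23.7 in the lowest male library and at 17.9 and 15.9 in the highest female library. Krtap4-8 and Krtap4-13 were too low to be tested, with at most 13.7 and 3.41 in any library.

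In the Krtap5 subfamily, whose genes lie on chromosome 7, levels were low. Krtap5-2, the only Krtap5 gene tested, had 14.2, 20.5 and 15.8 normalized counts in males and 1.90, 0 and 3.97 in females, with a log2 fold change of -3.03 (standard error 0.63) and an adjusted p-value of 0.160 in edgeR. This gene also reached 10 counts in males only, so that the filter set its direction. Krtap5-5 reached 25.5 in male library 3, yet male library 1 at 7.10 was below female library 3 at 8.94. Krtap17-1 had 20.5, 46.1 and 44.9 in males and 9.48, 0.896 and 13.9 in females. Among tested ultra-high-sulfur genes, Krtap1-3 was the member with the smallest fitted difference. It had 20.5, 47.8 and 63.4 in males and 19.0, 0 and 25.8 in females, so that male library 1 lay below female library 3, and its log2 fold change of -1.55 (standard error 0.80) had an unadjusted p-value of 0.0886 in edgeR.

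**Figure D1:**
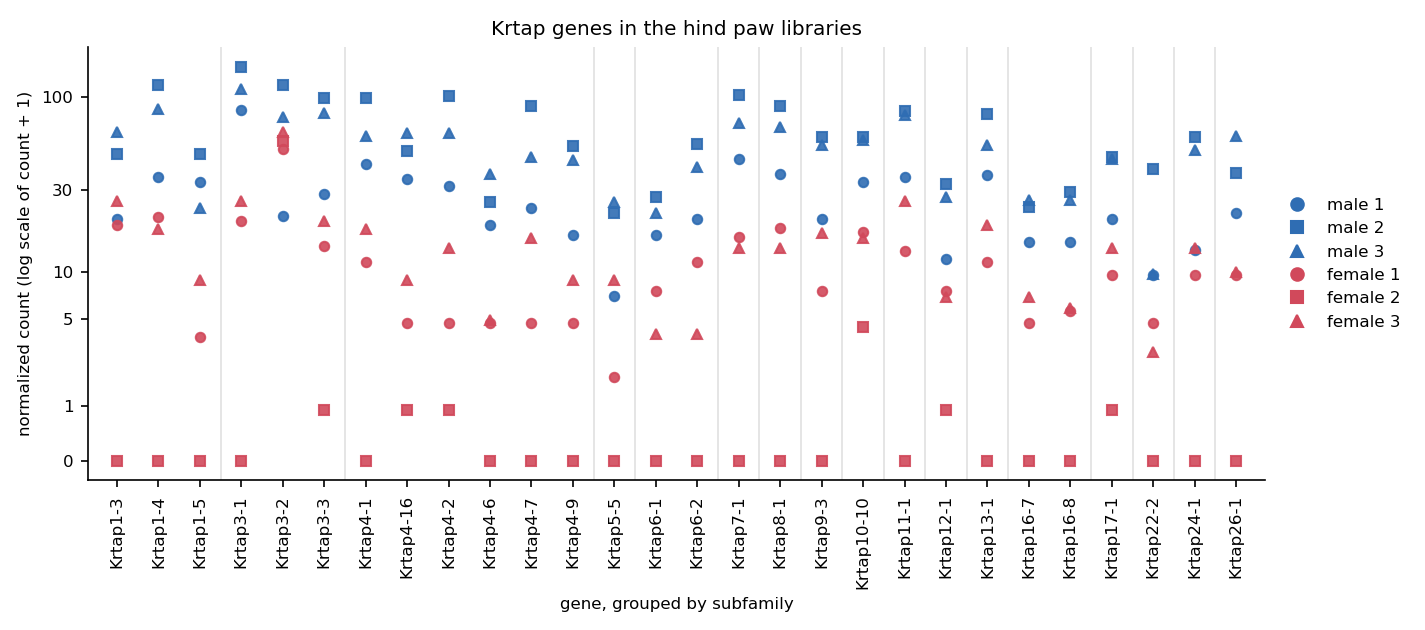
Normalized counts of the 28 Krtap genes with a mean of at least 10 over the 6 hind paw libraries, on a log scale of the count plus 1, grouped by subfamily; points are single libraries, colored by sex and shaped by library number. Male points lie above female points in 24 of the 28 genes (7.82% of all genes tested), and female library 2 lies at 0 in 21, while Krtap3-2 stands at 56.4 in that library. The mean is over both sexes, and some genes reached it through the males.

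By the limits used here, high-sulfur genes made up the largest class by counts. Their sums were 411, 1026 and 814 in the male libraries and 191, 58.2 and 250.4 in the female libraries. The ratio of the means was 4.51, or 3.40 without female library 2, and the log2 difference of -2.32 ranged from -1.68 to -2.73 with 1 library left out. At a looser limit of 25% cysteine, some of these genes, such as Krtap1-4 and Krtap1-5, become ultra-high-sulfur. That class is then the larger in each male library, but not in the female libraries. Krtap1-4 had 35.5, 116 and 85.4 normalized counts in males and 20.9, 0 and 17.9 in females, and Krtap1-5 had 33.1, 47.8 and 23.8 against 3.79, 0 and 8.94. Neither overlapped between the sexes, and every male library was above every female library in 7.82% of all genes tested. Krtap1-5 reached 10 counts in males only, so that the filter set its direction. On chromosome 16, Krtap11-1 had 35.5, 83.6 and 79.2 in males against 13.3, 0 and 25.8 in females, and Krtap13-1 had 36.3, 80.2 and 53.7 against 11.4, 0 and 18.9. Krtap26-1 had 22.1, 37.5 and 60.7 in males and 9.48, 0 and 9.94 in females. In Krtap24-1, male library 1 at 13.4 was just below female library 3 at 13.9, and Krtap13 had a single read in all. Krtap7-1 is usually placed among the high-glycine-tyrosine proteins, but at 29.9% glycine plus tyrosine it fell in the high-sulfur class under the limits used here. It had 45.0, 102 and 71.3 normalized counts in males and 16.1, 0 and 13.9 in females.

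The Krtap3 genes, which lie side by side at an end of the chromosome 11 cluster, differed among themselves. Over the 6 libraries together, Krtap3-1 had the highest mean of all members, at 64.5 against 64.3 for Krtap3-2. In females alone, Krtap3-2 had a mean of 57.1 and Krtap3-1 of 15.2. Krtap3-1 was counted 107, 86 and 125 times in males and 21, 0 and 26 times in females. After normalization these were 84.4, 147 and 110.0 against 19.9, 0 and 25.8. Krtap3-3 had 28.4, 99.0 and 81.0 normalized counts in males and 14.2, 0.896 and 19.9 in females. In Krtap3-1 and Krtap3-3 the males were above the females. Their log2 fold changes were -2.89 (standard error 0.66) and -2.54 (standard error 0.71), with adjusted p-values of 0.187 and 0.287 in edgeR. Krtap3-2 was counted 27, 68 and 88 times in males and 54, 63 and 64 times in females, or 21.3, 116 and 77.5 against 51.2, 56.4 and 63.6 after normalization. Its lowest library was male library 1, and its female libraries lay within the range of the males. Fitted to these values, the female minus male difference on the log2 scale was -0.25 (standard error 0.50), with an unadjusted p-value of 0.626 and an adjusted p-value of 0.933 in edgeR.

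Female library 2 set these genes apart most. There, Krtap3-2 had 63 reads (95% Poisson interval 48.4 to 80.6), Krtap3-3 had 1 (0.0253 to 5.57) and Krtap3-1 had 0 (upper limit 3.69). Such intervals and limits cover counting error only. The log2 ratio of Krtap3-2 to Krtap3-1, with 0.5 added to each normalized count, was -1.96, -0.34 and -0.50 in males and 1.34, 6.83 and 1.28 in females. It was negative in each male library and positive in each female library. For Krtap3-2 to Krtap3-3 it was -0.41, 0.23 and -0.06 in males and 1.81, 5.35 and 1.65 in females, so that the male signs were mixed and the lowest female ratio exceeded the highest male ratio. The ratio of Krtap3-1 to Krtap3-3 on the same scale was 1.55, 0.57 and 0.44 in males and 0.47, -1.48 and 0.37 in females, and in female library 2 it rests on 0 and 1 reads. These ratios were computed after the levels were seen and are given as a description.

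**Figure D2:**
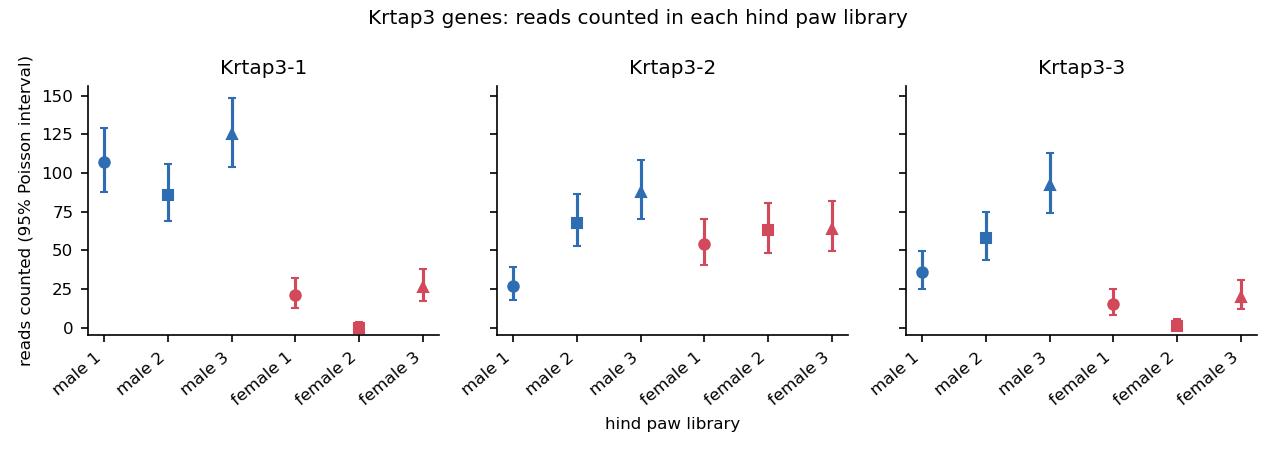
Reads counted for Krtap3-1, Krtap3-2 and Krtap3-3 in each hind paw library, with exact 95% Poisson intervals. Female library 2 has 0 and 1 reads of Krtap3-1 and Krtap3-3 and 63 of Krtap3-2.

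The counts of Krtap3-2 and Krtap3-3 rest on part of each gene only. Their coding sequences are identical in the annotation, while that of Krtap3-1 is 82.7% identical to either. A read within the identical sequence aligns to both genes, and reads with more than 1 alignment were not counted to a gene. Of all 50-base windows, 71.1% in Krtap3-2, 58.4% in Krtap3-3 and 91.2% in Krtap3-1 occur at 1 place in the genome, and with 100-base windows the shares were 74.9%, 63.0% and 100%. How the uncounted reads were divided between Krtap3-2 and Krtap3-3 was not tested.

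The 150 bases before each start, from RefSeq on GRCm38.p6, are shown because the genes differ in their order of libraries. Capitals mark TATAAA, the core of the TATA box, searched on both strands. The windows lie on the minus strand at chr11:99566631-99566780 for Krtap3-1, chr11:99556854-99557003 for Krtap3-2 and chr11:99550864-99551013 for Krtap3-3.
Krtap3-1: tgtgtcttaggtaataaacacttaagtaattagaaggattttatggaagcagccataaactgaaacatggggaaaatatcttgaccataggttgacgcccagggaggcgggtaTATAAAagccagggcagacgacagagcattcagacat
Krtap3-2: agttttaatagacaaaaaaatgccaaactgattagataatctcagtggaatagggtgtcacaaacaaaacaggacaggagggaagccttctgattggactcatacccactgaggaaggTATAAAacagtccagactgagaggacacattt
Krtap3-3: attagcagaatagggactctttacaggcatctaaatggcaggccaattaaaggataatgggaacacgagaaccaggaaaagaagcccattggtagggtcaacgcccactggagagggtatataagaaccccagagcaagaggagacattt
The motif starts 37 bases before the start site of Krtap3-1 and 32 before that of Krtap3-2. The window of Krtap3-3 does not hold these exact letters but has the related letters tatataag in the corresponding part, so the search does not show that it lacks a TATA box. In aligned bases the windows of Krtap3-2 and Krtap3-3 were 54.8% identical, those of Krtap3-1 and Krtap3-2 56.6%, and those of Krtap3-1 and Krtap3-3 51.9%, and the identity of unrelated windows was not computed. Across the family, promoters were found for 39 members, and TATAAA lay in the 250 bases before the start in 33 of them (84.6%), against 4063 of all 32851 promoters (12.4%). CTTTGA, a core bound by TCF/LEF factors, lay in 8 of the 39 (20.5%), against 13.8% of all promoters. A match describes the letters of the window and no binding was measured.

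Among high-glycine-tyrosine genes, whose small products fill the matrix between filaments, the sum was 90.7, 196 and 151 in the male libraries and 40.8, 0 and 39.7 in the female libraries. Female library 2 had no read of any of the 10 members. The ratio of the means was 5.43, or 3.62 without that library, and with 1 library left out the log2 difference, with 3 counts in place of 0, ranged from -1.79 to -3.75. Krtap8-1 was the highest, with 37.1, 88.7 and 67.8 normalized counts in males and 18.0, 0 and 13.9 in females. Krtap6-1 had 16.6, 27.3 and 22.0 in males against 7.59, 0 and 3.97 in females. Krtap16-7 and Krtap16-8, which current RefSeq names place in other subfamilies as Krtap21-1 and Krtap6-5, had at least 15.0 in each male library and at most 6.95 and 5.96 in females. In these 4 genes every male library was above every female library, against 7.82% of all genes tested. Of the 4, only Krtap8-1 had a female library at 10 counts, so that the filter set the direction of the others. Further symbols have moved as well, since Krtap16-4, Krtap16-5, Krtap16-9 and Krtap8-2 are now Krtap19 genes and Krtap16-1 is ambiguous, and values by subfamily follow the deposited symbols. Krtap16-1, Krtap16-4, Krtap16-9 and Krtap20-2 had at most 1.99 in any library, and Krtap16-5 and Krtap8-2 overlapped between the sexes.

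The 7 members without a class included Krtap10-10, whose locus was not matched in the annotation. It had 33.1, 59.7 and 57.2 normalized counts in males and 17.1, 4.48 and 15.9 in females, which made it, with 5 reads, the member with most reads in female library 2 after Krtap3-2. Krtap6-2, annotated as a pseudogene, had 20.5, 54.6 and 40.5 in males and 11.4, 0 and 3.97 in females. Krtap22-2 had 9.46, 39.2 and 9.68 in males and 4.74, 0 and 2.98 in females.

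Per kilobase of exon, the order of the male levels was led by Krtap3-1 at 188 normalized counts per kb, followed by Krtap1-4 at 133, Krtap7-1 at 118 and Krtap8-1 at 111. Krtap6-2 and Krtap3-3 were at 97.3 and 94.9. In females Krtap3-2 led with 55.4 per kb, and Krtap3-1, next, had 25.2. The windows that occur at 1 place in the genome ranged over the 49 matched members from 18.6% in Krtap4-13 to 100% in 13 members at 50 bases, with a median of 85.2%, so levels of members with near-identical copies are uncertain. Krtap4-8 overlaps Gm11595 on the same strand, and Krtap14 overlaps Krtap15 on the opposite strand. Reads of the former pair cannot be told apart by strand, and for the latter the strand setting of the counting is not given in the sources used here, so both pairs are uncertain.

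Members shared an order of libraries. Among the 28 genes with a mean normalized count of at least 10, female library 2 was lowest in 27, against 15.3% of all genes tested, and male library 1 in Krtap3-2. Male library 2 was highest in 22 and male library 3 in 6. Male library 1 was the lowest of the males in 27 of the 28, and female library 3 was above female library 1 in 20. Every male library exceeded every female library in 24 genes, against 7.82% of all genes tested, the exceptions being Krtap1-3, Krtap3-2, Krtap5-5 and Krtap24-1. The mean is over both sexes, so genes such as Krtap4-6, with means of 3.24 in females and 27.2 in males, reached 10 through the males. For such genes the limit itself favors low female libraries. The shares of all genes are over those that passed the filter on counts, as 27 of the 28 did. By subfamily, 17 had a gene with a mean normalized count of at least 10. In sums over each of these 17, female library 2 was lowest in 17, the males were all above the females in 16, and male libraries 2, 3 and 1 led in that order in 13. Among single genes, the first 2 held in 15.3% and 7.82% of all genes tested. The 17 were kept by the same mean over both sexes. Some, such as Krtap7 and Krtap11, hold a single member, so their sums repeat its values. The 28 genes come from the same 6 libraries and are not independent observations of the order of libraries.

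In edgeR's quasi-likelihood test, 22 of 14316 genes (0.154%) differed between the sexes in hind paw at an adjusted p-value under 0.05, and 0 of the 28 Krtap genes tested were among them. The 28 are not all members, and 10 of them passed the filter of 10 counts in at least 3 libraries with no female library at 10 counts, so that their direction was set by the filter. Of the other 18, 16 were lower in females at an unadjusted p-value under 0.05, against 5.49% of all genes tested, and 0 were higher. With the 10 included, 26 of the 28 were lower. Only Krtap1-3 and Krtap3-2 were not among the 26. The median log2 fold change was -2.56 over the 18 and -2.57 over the 28, against -0.0057 for all genes tested, and the range was from -3.33 in Krtap4-16 to -0.25 in Krtap3-2. Male levels were all above female levels in 15 of the 18 and 25 of the 28, against 7.82% of all genes tested. The other 23 members did not pass.

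The adjusted count depended on the tool. DESeq2 called 11 of the 28 lower in females at an adjusted p-value under 0.05, against 0.859% of all genes: Krtap1-5, Krtap4-2, Krtap4-6, Krtap4-9, Krtap4-16, Krtap5-2, Krtap6-2, Krtap10-10, Krtap16-8, Krtap17-1 and Krtap26-1. Of these 11, 6 had no female library at 10 counts, so that the filter set their direction: Krtap1-5, Krtap4-6, Krtap4-9, Krtap4-16, Krtap5-2 and Krtap16-8. The other 5 were among the 18 genes with such a library. Without the filter, edgeR called 1 of the 51, Krtap4-16, and at an unadjusted p-value under 0.05 it had 36 of the 51 lower in females, against 4.79% of the 18332 genes with any count. Krtap16-4 and Krtap31-1 alone had fitted values above 0 there, each with at most 1.99 normalized counts in a library. When female library 2 was left out, 26 of the 28 were lower in females at an unadjusted p-value under 0.05, against 3.9% of all genes. At an adjusted p-value, 0 were. They were the same 26 genes, of which the filter set the direction of 10, and the other 16 were among the 18. The fitted differences of the 28 were smaller, with a median of -1.97 and a range from -2.81 to -0.24.

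**Figure D3:**
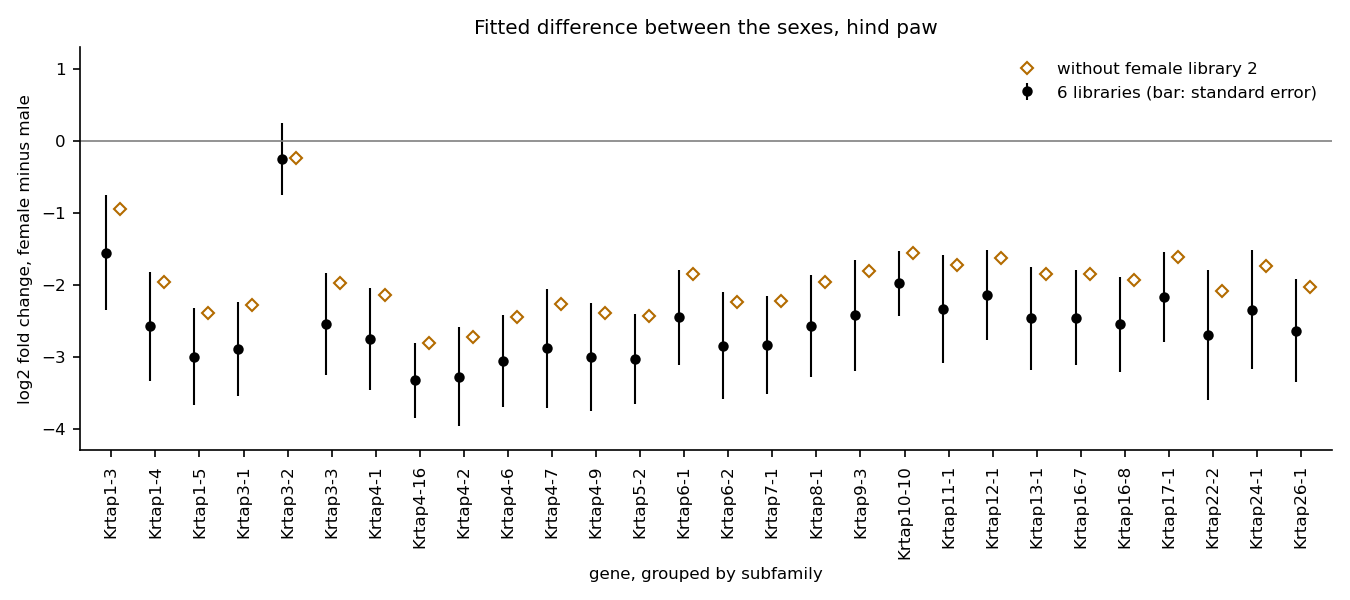
Log2 fold change of female against male for the 28 Krtap genes tested by edgeR in hind paw, grouped by subfamily; circles with bars are fits of 6 libraries with their standard errors, and diamonds are fits without female library 2. Every value lies below 0, between -3.33 and -0.25 with all libraries, and Krtap3-2 lies nearest to 0.

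Between male libraries, some subfamilies kept their share of the Krtap counts and others did not. The Krtap1 subfamily took 10.8%, 10.7% and 10.8% of all Krtap counts in male libraries 1, 2 and 3, the Krtap4 subfamily 21.6%, 21.8% and 20.3%, and the Krtap8 subfamily 4.68%, 4.82% and 4.59%. Some subfamilies with few reads ranged more widely between males, from 1.62% to 3.15% for Krtap24, 1.89% to 3.82% for Krtap26, 0.608% to 1.98% for Krtap22 and 0.430% to 1.15% for Krtap15. Krtap3-2 took 2.58%, 5.85% and 4.87% in males, but 14.9%, 86.3% and 14.3% in females. The exact 95% binomial interval of its share in female library 2 was 76.2% to 93.2%. High-sulfur genes accordingly held 49.7%, 51.7% and 51.2% of the counts in males and 55.5%, 89.0% and 56.3% in females, and ultra-high-sulfur genes 29.8%, 29.2% and 30.8% against 20.4%, 4.11% and 29.0%.

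With Krtap3-2 left out of the total, the high-sulfur share in female libraries 1 and 3 was 47.7% and 49.0%, beside 48.4%, 48.7% and 48.7% in males. The ultra-high-sulfur share was 24.0% and 33.9% in those female libraries, on either side of the male values of 30.6%, 31.1% and 32.4%. The Krtap4 share was below the males in both, at 12.3% and 18.5% against 22.1%, 23.2% and 21.3%. The Krtap1 share was above the males in both, at 14.9% and 13.8% against 11.1%, 11.3% and 11.4%. Female libraries 1 and 3 had 362 and 448 Krtap reads in all, Krtap3-2 included. No interval was computed for these shares, so counting error was not separated from a difference in makeup. Only 10 reads remained in female library 2, too few for a share to be compared.

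**Figure D4:**
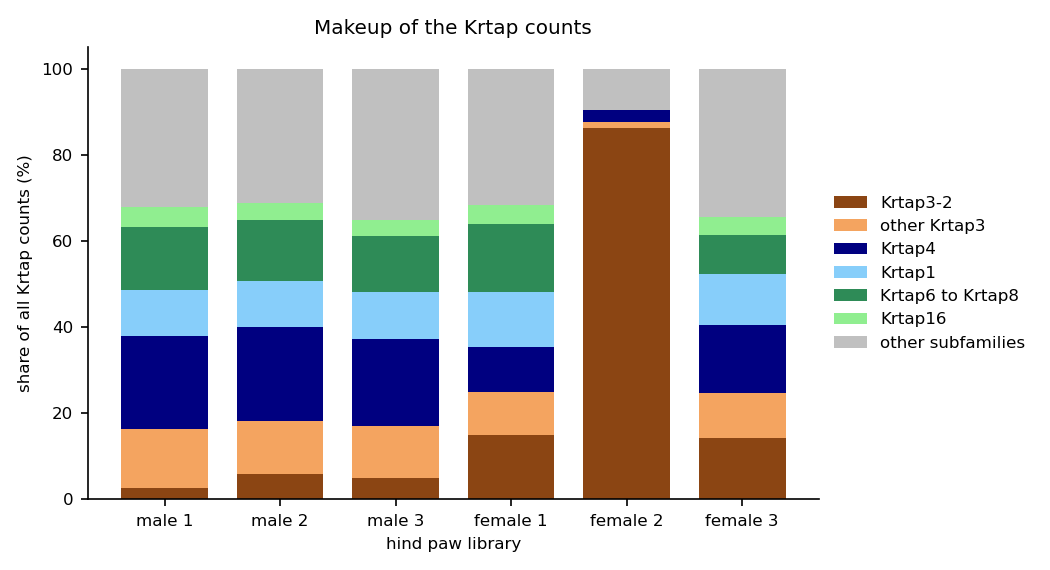
Share of all Krtap counts taken by Krtap3-2, by the other Krtap3 genes and by further subfamilies in each hind paw library, as stacked bars that add up to all Krtap counts of the library. Krtap3-2 takes 86.3% in female library 2, 14.3% and 14.9% in the other females and 2.58% to 5.85% in males.

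Genes for other proteins of the hair shaft and its sheath were counted beside the Krtap genes. The 15 hair keratin genes listed, which encode the filaments that the matrix surrounds, summed to 409, 1087 and 949 normalized counts in males and 267, 24.2 and 286 in females. All 14 that were tested were lowest in female library 2, and 10 of the 15 listed had no read there. None of the 14 was called by edgeR at an adjusted p-value under 0.05, 11 were lower in females at an unadjusted p-value under 0.05 (5.49% of all genes tested), and DESeq2 called 2 (0.859% of all genes). Of the 11, Krt36 had no female library at 10 counts, so that the filter set its direction, and the other 10 had such a library. Over the 14 tested, the median log2 fold change was -2.19. Krt33a, the highest, had 37.9, 138 and 104 in males and 15.2, 0 and 28.8 in females. Krt84 was less depleted in female library 2, with 10.7 there and 16.1 and 13.9 in the other females, against 31.5, 52.9 and 46.7 in males.

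Inner root sheath genes, which serve the sheath that molds the growing shaft, were counted more often, with the males in the same order as for Krtap and female library 2 lowest, but with female library 1 above female library 3. Their sum was 3845, 11805 and 9217 in males and 2866, 120.0 and 2419 in females. Tchh, encoding trichohyalin, was the highest with 1814, 6715 and 4865 in males and 1429, 71.7 and 1229 in females. Krt71 had 1298, 1427 and 2502 reads in males and 739, 0 and 544 in females. Of 7 sheath genes tested, 0 were called by edgeR at an adjusted p-value under 0.05, 5 were lower in females at an unadjusted p-value under 0.05 (5.49% of all genes tested), and the median log2 fold change was -2.19. Krt73 was the least low in female library 2, at 43.9 against 103 and 134 in the other females.

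Other hair shaft proteins were mixed. Dsg4 and Padi3 were lowest in female library 2 at 3.58 and 1.79, against at least 22.8 and 33.2 elsewhere. S100a3, the highest of the list, had 217, 358 and 353 in males and 311, 238 and 256 in females. Among companion layer and outer root sheath keratins, Krt75 had 165, 213 and 245 in males and 74.9, 12.5 and 97.4 in females, whereas Krt6a, the highest, had 2484, 2995 and 2413 against 2014, 2692 and 2093. At an unadjusted p-value under 0.05 in edgeR, 2 of 3 other shaft genes and 2 of 5 companion layer and outer root sheath genes were lower in females, against 5.49% of all genes tested, and 0 were called at an adjusted one.

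Summed over lists for other follicle compartments, female library 2 was within or near the range of the other libraries. Hair matrix and shaft regulators, transcription factors and signals that include Hoxc13 and Foxn1, summed to 2180, 1734 and 1561 in males and 1752, 1756 and 1369 in females, with a median log2 fold change of -0.16 over 7 genes tested. Dlx3, the highest, had 1291, 1003 and 916 in males and 1060.2, 1101 and 804 in females. A sum mostly follows its highest genes. Of the 7 tested, only Hoxc13 was lowest in female library 2. It had 130, 142 and 127 in males and 101, 98.5 and 120 in females. The bulge and germ list summed to 2206, 2183 and 2128 against 2009, 2162 and 3109, with Krt15 highest at 1031, 1242 and 1228 against 1153, 1509 and 2195, while the other 3 genes of that list were lowest in female library 2. Dermal papilla genes summed to 984, 998 and 1011 against 826, 780.2 and 681, and their highest gene, Wif1, had 698, 763 and 770.3 against 552, 541 and 477. At an unadjusted p-value under 0.05 in edgeR, 1 gene of each of these 3 lists was lower in females, against 5.49% of all genes tested, and 0 were called at an adjusted one.

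Epidermal RNA was present in female library 2 as in the rest. The 10 interfollicular epidermis genes summed to 760723, 761162 and 698361 in males and 616391, 694796 and 536627 in females. Every male library was above every female library here too, but with a ratio of the means of 1.20, and female library 2 was the highest of the females. Krt10, the highest, had 301633, 301052 and 278931 in males and 226513, 257104 and 197775 in females. Of the 10, 0 were called by edgeR at an adjusted p-value under 0.05, and at an unadjusted one 2 were lower and 3 were higher in females, against 5.49% and 4.25% of all genes tested. Sebaceous gland and melanocyte lists had 0 genes at an unadjusted p-value under 0.05. Their highest genes were Soat1, at 793 to 1075 in males and 530.1 to 933 in females, and Mitf, at 280.0 to 317 and 214 to 285.

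Skeletal muscle genes had many reads in every hind paw library, although the study's methods describe punches without muscle, and they varied between the libraries. Their sum was 31999, 162525 and 125164 in males and 79327, 30285 and 111116 in females, and Myh1, the highest, had 9490.2, 45670.5 and 35393 against 18583, 10033 and 34587. Within each sex the muscle sums followed the order of the Krtap sums, with male libraries 2, 3 and 1 and female libraries 3, 1 and 2 from high to low. Male library 1 and female library 2 had similar muscle sums, and their Krtap sums were 827 and 65.4. The muscle genes overlapped between the sexes, and 0 of 10 had an unadjusted p-value under 0.05 in edgeR. Their part in the Krtap result was not tested, and neither was that of the sheath and keratin genes.

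**Figure D5:**
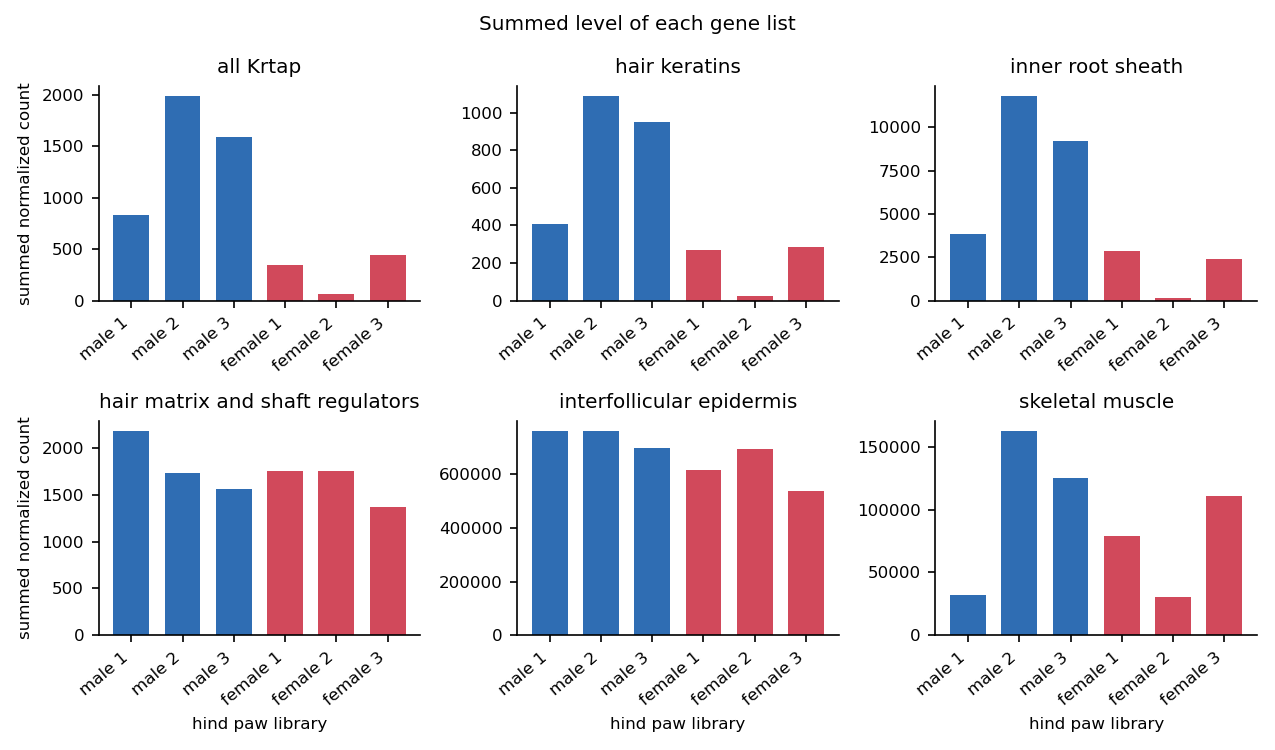
Summed normalized count of the Krtap genes and of 5 other gene lists in each hind paw library, each panel on its own linear axis from 0; blue bars are male and red bars female libraries. Krtap, hair keratin and inner root sheath sums share their lowest library, female library 2, which is also the lowest for skeletal muscle but not for the matrix regulators or the interfollicular epidermis.

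By position, the 49 matched members lie in 4 clusters of mm9, with 21 on chromosome 11, 21 on chromosome 16, 5 on chromosome 7 and 2 on chromosome 10. The clusters on chromosomes 11 and 16 span 444 and 960.5 kb. Low counts in female library 2 were found in each cluster, since all 26 matched members with a mean of at least 10 but Krtap3-2 were lowest there. The same spans hold 22 other counted genes under symbols such as Gm11559 and Gm10229, looked up after the Krtap values were seen. Of these, 7 had a mean of at least 10, and all 7 were lowest in female library 2, with at most 2 reads. Gm10229, inside the chromosome 16 cluster, had 32, 30 and 45 reads in males and 5, 0 and 1 in females. The 22 genes summed to 186, 485 and 411 normalized counts in males and 77.8, 1.79 and 87.4 in females, so the Krtap symbols do not take in every gene of the clusters with this pattern.

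In whole DRG the family was at the limit of detection. Of the 51 genes, 44 had 0 reads in all 6 DRG libraries, and no gene had more than 1 read in a library. The summed counts were 1, 2 and 2 in the male and 1, 1 and 0 in the female DRG libraries, against 4902 over the 6 hind paw libraries. At this depth, 3 reads correspond to between 0.225 and 0.334 CPM. The 7 reads fell 1 each on Krtap6-2, Krtap7-1, Krtap8-1, Krtap9-1, Krtap10-10, Krtap16-10 and Krtap26-1. None of the members passed the filter in DRG, so 0 were tested between the sexes there, and a difference was not detectable at this depth. Inner root sheath genes had 55 to 105 reads in the DRG libraries and hair keratins 5 to 14, 39 of the 47 hair keratin reads being listed under Krt83, a symbol that has since changed, so which gene is meant is uncertain.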

How the data were processed

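The deposited counts were made by the authors: per the study's methods, reads were aligned to mm9 with TopHat2 and counted per gene with HTSeq-count, whose version, annotation and strand setting are not given in the sources used here. The 12 count files were joined by symbol and their 5 summary categories left out. Counts were divided by RLE size factors of the 6 libraries of a tissue. Genes that reached 10 counts in 3 or more of these libraries were tested with edgeR 4.0.16 (quasi-likelihood F-test, Benjamini-Hochberg) in R 4.3.3. Members and gene lists were chosen with earlier results of these data known. Sums and shares carry no p-value, since an exact permutation of 3 against 3 libraries cannot go below 0.1. A sum of 0 took 3 counts before a log2. Protein classes were computed from translated GENCODE coding sequences, because no RefSeq protein table was given. Promoters came from RefSeq, windows from the mm9 genome.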

Additional observations from a re-analysis of the deposited data

How the results depend on the processing

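With edgeR on 6 libraries, 0 of 28 tested Krtap genes were called. DESeq2 called 11 (0.859% of all genes were called lower in females), edgeR without a filter called 1 of 51 (0.12%), and a fit of all 12 libraries called 1 (0.345%). Krtap4-16 was the gene called in the last 2 fits, and it was also among the 11. Its log2 fold change was -3.35 with DESeq2, -3.33 without a filter and -3.34 with all 12 libraries, where it passed the threshold that it missed at -3.33. It moved to -2.81 without female library 2 and to -4.08 without female library 3. DESeq2 also called 2 of 14 hair keratin genes, against the 0.859% of all genes, and edgeR called 0.

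At an unadjusted p-value under 0.05, 26 of 28 Krtap genes were lower in females, against 5.49% of all genes tested, and the filter set the direction of 10 of the 28. Leaving out 1 library at a time gave from 13 to 26: 18 of 18, 15 of 18 and 13 of 18 without male libraries 1, 2 and 3, against 5.44%, 4.88% and 4.85% of all genes, and 26 of 28 without each female library, against 4.97%, 3.9% and 4.03%. The number of 10 holds with all libraries. Without female library 3, the filter also set the direction of Krtap4-2, Krtap4-7 and Krtap9-3, and without female library 1 that of Krtap6-2. Fewer genes pass the filter without a male library, and Krtap4-16 then could not be tested.

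The replicate block gave 0 of 28 called, against 0.0349% of all genes called lower in females. At an unadjusted p-value under 0.05 it gave 26 of 28, against 5.36% of all genes lower in females. Krtap4-16 was at -3.35 in that fit. TMM factors changed no count of Krtap or hair keratin genes called and no count of Krtap genes with a given library highest or lowest, and were not applied to sums or shares. The sum without Krtap3-2, added after seeing the data, differed by -3.72 on the log2 scale, against -2.68 with it. With all libraries, the male mean was 6.14 times the female mean without Krtap3-2 and 5.16 times with it. Without female library 2, these ratios were 4.15 and 3.72. The log2 difference with Krtap3-2 was -1.82 without female library 2, and it was not computed with both left out.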
